A study of Homo sapiens with 24 samples.

Results

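The 10 genes described here lie beside ERBB2 on the 17q12-q21 segment of chromosome 17 and were found in the expression table by symbol: MED1, CDK12, STARD3, TCAP, PNMT, PGAP3, MIEN1, GRB7, GSDMB and ORMDL3. All 10 were among the 18889 genes of the table, MIEN1 under that name. Their levels were read from RNA sequencing of 24 samples of 3 ER+ breast cancer cell lines, ZR-75-30 (labelled ZR7530), MDA-MB-175 and HCC1500. Each line was grown for 48 hours with 5 mM glucose (low glucose, LG) or 25 mM glucose (high glucose, HG), with 4 replicates in each of the 6 groups. All groups had been conditioned in low-glucose medium and were then kept without serum. Each line is a single established culture, the labels name no introduced allele, and they call the 4 samples replicates without saying that they came from separate cultures, so the p-values measure the spread between these samples only.

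The values are read counts that the authors divided by 1 factor per sample, and undoing that factor gave whole numbers throughout (tolerance 0.01). The libraries held 9140024 to 17998819 reads in genes, so 1 read was worth 0.3176 to 0.7635 and 3 reads, taken as the floor, 0.95 to 2.29. All 7 luminal epithelial markers were above 10 in every sample of each line, and none of the 3 leukocyte markers looked for was in the table. Of the 3 endothelial markers, 2 (VWF and CDH5) were in the table, with a sum of 57.8 to 77.7 per sample in MDA-MB-175, 4.17 to 10.7 in ZR-75-30 and 0 to 1.53 in HCC1500. The 3 fibroblast markers, mostly COL1A1, summed to 78.6 to 116 in ZR-75-30, 75.8 to 101 in MDA-MB-175 and 178 to 261 in HCC1500. The 1 basal marker of 3 in the table was at 15.3 or below, and the part of these markers in the results was not tested. HCC1500 HG replicate 3 stood apart: it correlated with the rest of its group at a mean of 0.944, where no other sample of the series was below 0.976, and HCC1500 HG results on the neighbours are therefore given with and without it. The HCC1500 LG libraries held 13190982 to 17998819 reads and the HG libraries 9423472 to 12140912, so depth and glucose cannot be told apart in that line.

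ERBB2 encodes the receptor tyrosine kinase HER2, and its stretch of 17q12 is amplified in a subset of breast cancers. The amplified piece differs in length between tumors, and the genes carried with ERBB2 are often raised in RNA together with it. Among the neighbours, GRB7 is an adaptor that binds activated receptor tyrosine kinases, STARD3 a late endosomal protein that binds cholesterol, PGAP3 an enzyme that remodels the lipid of GPI anchors, and MIEN1 a small protein linked to cell migration. MED1 is the Mediator subunit that binds nuclear receptors, CDK12 the cyclin K-dependent kinase of the RNA polymerase II tail, and ORMDL3 a brake on sphingolipid synthesis. GSDMB belongs to the pore-forming gasdermins, TCAP (telethonin) caps titin in the sarcomere, and PNMT makes adrenaline. DNA copy number was not measured in these samples, so a line's RNA level and its gene dosage cannot be told apart here.

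On the GRCh37 build (GENCODE, matched by Ensembl gene identifier), MED1 (ENSG00000125686, 17:37560538-37607525, minus strand) and CDK12 (ENSG00000167258, 17:37617739-37723812, plus strand) begin 236.6 and 226.4 kb before the start of ERBB2. STARD3 (ENSG00000131748, 17:37793343-37820454, plus), TCAP (ENSG00000173991, 17:37821602-37822807, plus) and PNMT (ENSG00000141744, 17:37824234-37826728, plus) begin 50.8, 22.6 and 19.9 kb before it. PGAP3 (ENSG00000161395, 17:37827375-37853050, minus) starts 8.9 kb after it, MIEN1 (ENSG00000141741, 17:37884749-37886785, minus) 42.6 kb and GRB7 (ENSG00000141738, 17:37894180-37903544, plus) 50 kb after it. All these starts are the outermost annotated ends of the genes. The RefSeq promoter windows of PGAP3 and ERBB2 share 136 bases, so their RefSeq starts lie far closer than 8.9 kb. GSDMB (ENSG00000073605, 17:38060848-38076107, minus) and ORMDL3 (ENSG00000172057, 17:38077294-38083854, minus) start 231.9 and 239.7 kb after it. Values count reads over each whole gene, and the labels and methods do not settle whether strand was used. MIEN1 shares 571 of its 2037 exon bases with ERBB2 on the opposite strand, PGAP3 shares 144 of 3619 with it, and MED1 shares 754 of 8608 with an antisense gene.

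The first question was whether the neighbours differed between the lines at low glucose, as the ERBB2 level did. GRB7, STARD3, PGAP3 and MIEN1 were 15.1- to 22.3-fold higher in ZR-75-30 than in MDA-MB-175 and 22.6- to 56.4-fold higher than in HCC1500. TCAP was higher too, from a far lower level. The outer neighbours MED1 and CDK12 went the other way and were lowest in ZR-75-30, and ORMDL3, GSDMB and PNMT were not raised there over both lines.

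**Figure D1:**
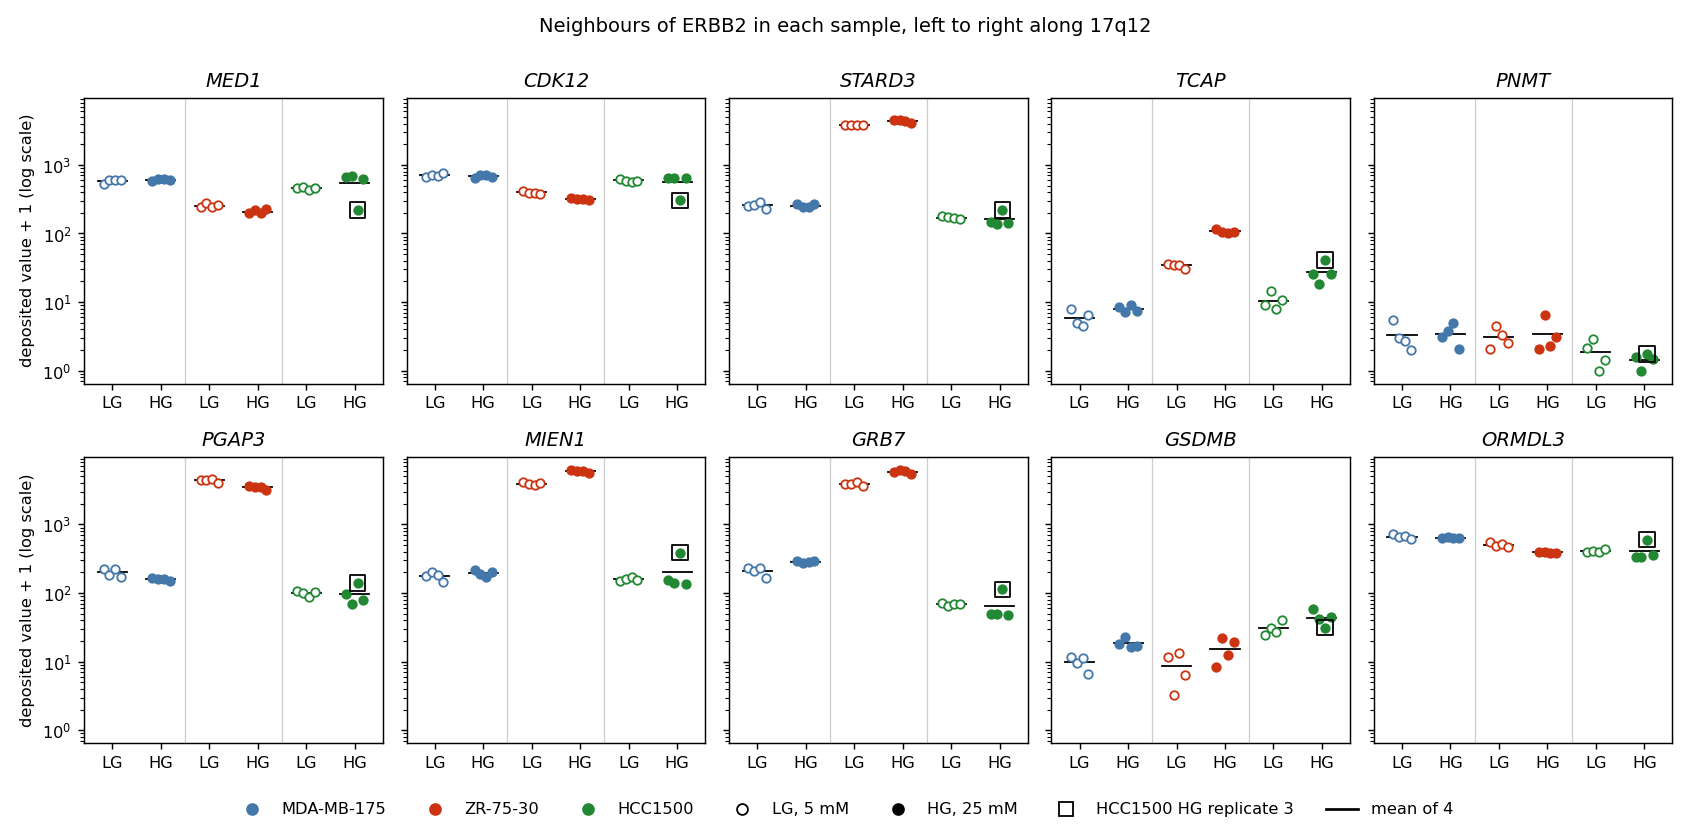
Deposited value plus 1 (log axis) of each neighbour in every sample, in 10 panels ordered along the chromosome; open points are LG, filled points HG, the line is the mean of 4 samples, and the square marks HCC1500 HG replicate 3. STARD3, PGAP3, MIEN1 and GRB7 lie at 3127 or above in all 8 ZR-75-30 samples and at 389.1 or below in the other 16.

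GRB7 read 229.9, 209.7, 228 and 164 in the 4 MDA-MB-175 LG samples. It read 3881, 3944, 4094 and 3634 in ZR-75-30. It read 69.5, 64.5, 69.0 and 68.5 in HCC1500. No sample of one line overlapped another, with HCC1500 the lowest. On the log2(value + 1) scale, ZR-75-30 minus MDA-MB-175 was 4.23 (SE 0.0849; limma with Benjamini-Hochberg adjustment, adjusted p = 3.10e-15), an 18.8-fold difference with a 95% interval of 16.5 to 21.3. ZR-75-30 minus HCC1500 was 5.82 (SE 0.0849; adjusted p = 4.42e-17), or 56.4-fold (49.8 to 64.0).

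STARD3 read 248, 261, 287 and 226 in MDA-MB-175. It read 3838, 3868, 3871 and 3823 in ZR-75-30, a spread of only 23.3 (SD) around 3850. It read 177, 172, 165 and 162 in HCC1500. The lines were again apart, in the order ZR-75-30, MDA-MB-175, HCC1500. ZR-75-30 was 15.1-fold above MDA-MB-175 (13.8 to 16.4; adjusted p = 1.07e-16) and 22.6-fold above HCC1500 (20.8 to 24.7; adjusted p = 1.11e-17).

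PGAP3 read 225, 185, 224 and 169 in MDA-MB-175. It read 4442, 4488, 4583 and 4059 in ZR-75-30. It read 105, 100.1, 86.3 and 104 in HCC1500. The same order of lines held without overlap, with ZR-75-30 21.9-fold (19.2 to 25.0) above MDA-MB-175 and 44.1-fold (38.7 to 50.3) above HCC1500 (adjusted p = 2.75e-15 and 1.32e-16).

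MIEN1 read 176, 202, 180.5 and 143 in MDA-MB-175. It read 4098, 3884, 3698 and 3969 in ZR-75-30. It read 148, 161, 169 and 152 in HCC1500. ZR-75-30 stood 22.3-fold (19.8 to 25.2) above MDA-MB-175 and 24.7-fold (21.9 to 27.8) above HCC1500, while MDA-MB-175 and HCC1500 overlapped and differed by 0.15 (95% interval -0.03 to 0.32; adjusted p = 0.107). If strand was not used in counting, the 571 shared bases at the mean ERBB2 level per base would hold 3821 in ZR-75-30, next to the MIEN1 mean of 3912, and 258.5 in MDA-MB-175, above the MIEN1 mean of 175. The line difference of MIEN1 is therefore uncertain. The 144 bases that PGAP3 shares would hold 963.5 of its mean of 4393.

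TCAP, a muscle gene by its known role, read 6.82, 4.02, 3.42 and 5.60 in MDA-MB-175, from 6 to 17 reads. It read 35.5, 34.1, 34.2 and 29.8 in ZR-75-30. It read 7.98, 13.3, 6.90 and 9.90 in HCC1500. ZR-75-30 was above every sample of the other lines, by 5.90-fold (4.24 to 8.21; adjusted p = 6.00e-08) over MDA-MB-175 and 3.34-fold (2.40 to 4.65; adjusted p = 3.54e-06) over HCC1500, and folds on this scale understate the change of genes this low. PNMT, the next gene along, held 0 to 11 reads per LG sample, and no fold is given for it. Its LG means were 2.08 ± 1.01 in ZR-75-30, 2.29 ± 1.48 in MDA-MB-175 and 0.869 ± 0.836 in HCC1500 (SD, n = 4 each), and the lines overlapped.

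CDK12 read 668, 703, 687 and 749 in MDA-MB-175. It read 419, 394, 390.2 and 381 in ZR-75-30. It read 615, 590.5, 571 and 587 in HCC1500. ZR-75-30 was the lowest line without overlap, 1.77-fold (1.66 to 1.89; adjusted p = 1.69e-10) below MDA-MB-175 and 1.49-fold (1.40 to 1.59; adjusted p = 7.50e-09) below HCC1500. MED1, its neighbour on the far side, read 240.4 to 274 in ZR-75-30, 523 to 607 in MDA-MB-175 and 429 to 470.4 in HCC1500. MED1 was 2.28-fold (2.10 to 2.48; adjusted p = 4.86e-11) and 1.79-fold (1.64 to 1.94; adjusted p = 1.93e-09) lower in ZR-75-30 than in MDA-MB-175 and HCC1500.

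On the other side of ERBB2, ORMDL3 read 472 to 553 in ZR-75-30, 606 to 719 in MDA-MB-175 and 392 to 437 in HCC1500. ZR-75-30 lay 0.40 below MDA-MB-175 (adjusted p = 2.22e-05) and 0.30 above HCC1500 (adjusted p = 2.56e-04) on the log2 scale, and the second difference was -0.05 (adjusted p = 0.357) when the values were rescaled to CPM. GSDMB read 2.27 to 12.5 in ZR-75-30, 5.60 to 10.8 in MDA-MB-175 and 23.6 to 39.2 in HCC1500, so only HCC1500 stood apart. It was 4.02-fold (2.32 to 6.95; adjusted p = 1.44e-04) lower in ZR-75-30 than in HCC1500.

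Counted over the 10 neighbours at LG, 5 were called higher (adjusted p below 0.05) in ZR-75-30 than in MDA-MB-175 and 3 lower, against 28.8% and 44.3% of all 17739 genes tested. Against HCC1500, 6 were higher and 3 lower, against 32.4% and 48% of all genes. Between MDA-MB-175 and HCC1500, 6 were higher in MDA-MB-175 and 2 lower, against 38.4% and 42.2%. The lines thus differed at most genes, and a call by itself says little of a neighbour. By size, 5 of 10 (GRB7, STARD3, PGAP3, MIEN1 and TCAP) were called higher in ZR-75-30 than in both other lines by at least 1 log2 unit, as were 4.93% of all genes. Ranked by the smaller of the 2 differences, MIEN1, PGAP3, GRB7 and STARD3 came 37th, 39th, 52nd and 64th of 17739 genes, with ERBB2 itself 68th and TCAP 368th. The place of MIEN1 in this count and ranking is uncertain because of the bases it shares with ERBB2. The median difference of the 10 was 1.25 from MDA-MB-175 and 1.26 from HCC1500, beside medians of -0.18 and -0.25 over all genes tested.

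MDA-MB-175 and HCC1500 were themselves unequal in the inner genes. GRB7 was 3.01-fold higher in MDA-MB-175 (2.65 to 3.42; adjusted p = 1.46e-10), PGAP3 2.01-fold (1.76 to 2.29; adjusted p = 5.29e-08) and STARD3 1.50-fold (1.38 to 1.64; adjusted p = 1.95e-07). ERBB2, at 4672 ± 345 and 1501 ± 56.7 (SD, n = 4), differed by 1.63 log2 units, and MIEN1, as given above, was not called. TCAP and GSDMB were the 2 called lower, by 1.77-fold and 3.15-fold.

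Per kb of exon sequence the levels of different genes can be compared only roughly. The lengths merge the exons of all annotated transcripts, not those expressed here, and for MIEN1 cover the whole gene of 2037 bases. The order of genes is therefore approximate, and that of MIEN1 also depends on the bases shared with ERBB2. In ZR-75-30 at LG the mean value per kb ran from MIEN1 at 1920 ± 82.3 through PGAP3 (1210 ± 63.6), GRB7 (1080 ± 53.2) and STARD3 (658 ± 3.99) to ORMDL3 at 134 ± 9.70 (SD, n = 4). TCAP followed at 34.8 ± 2.59, then CDK12 at 30.5 ± 1.25 and MED1 at 29.5 ± 1.79, a pair within each other's spread. In MDA-MB-175 the order was led by ORMDL3 at 177 ± 12.4 per kb, and GRB7 (57.8 ± 8.50), PGAP3 (55.5 ± 7.80) and CDK12 (54.1 ± 2.66) lay within each other's spread. In HCC1500, ORMDL3 (109 ± 5.26) again came first and GRB7, at 18.9 ± 0.642, came after MIEN1, MED1, CDK12, STARD3 and PGAP3. ERBB2 itself stood at 6690 ± 387 per kb in ZR-75-30, 453 ± 33.5 in MDA-MB-175 and 145 ± 5.49 in HCC1500, all at LG.

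Taken as a percentage of ERBB2 in the same sample, a measure that the scaling of the sample cannot change, GRB7, STARD3, PGAP3 and MIEN1 moved less between the lines than MED1, CDK12 and ORMDL3 did. At LG, GRB7 was 5.63% ± 0.0622 of ERBB2 in ZR-75-30, 4.43% ± 0.351 in MDA-MB-175 and 4.53% ± 0.308 in HCC1500 (SD, n = 4). STARD3 was 5.59% ± 0.302, 5.47% ± 0.383 and 11.3% ± 0.733 in that order, and PGAP3 6.36% ± 0.0689, 4.28% ± 0.336 and 6.59% ± 0.58. MIEN1 was 5.69%, 3.75% and 10.5% in that order. TCAP, lowest in ZR-75-30 by this measure, was 0.0483%, 0.107% and 0.631%, and PNMT was 0.00299%, 0.0478% and 0.0572%. CDK12 was 0.575% ± 0.0346 in ZR-75-30, 15.1% ± 1.95 in MDA-MB-175 and 39.4% ± 2.17 in HCC1500, and MED1 and ORMDL3 spread in the same way. These ratios are given without a test. The genes had been set apart by whether they were higher in ZR-75-30, as ERBB2 was, so the contrast restates those levels. MIEN1 and PGAP3 also share exon bases with ERBB2.

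**Figure D2:**
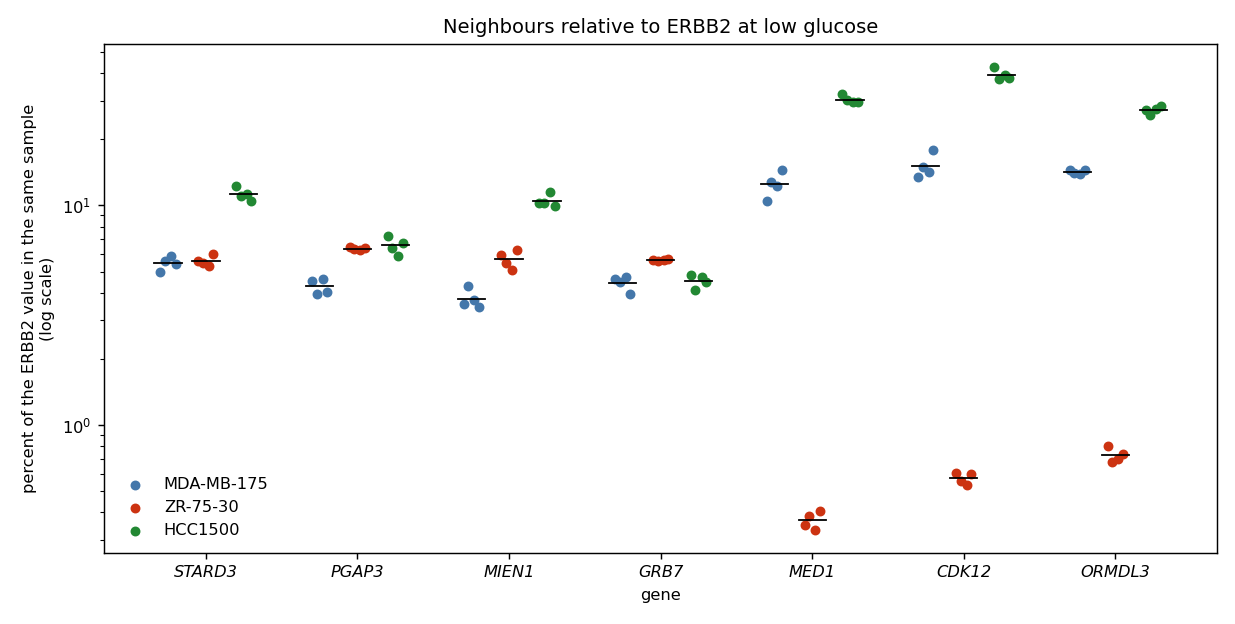
Value of 7 neighbours as a percentage of the ERBB2 value in the same sample (log axis) at LG; points are samples, coloured by line, and the bar is the mean of 4. STARD3, PGAP3, MIEN1 and GRB7 lie between 3.43% and 12.3% in all lines, whereas MED1, CDK12 and ORMDL3 are under 1% in ZR-75-30 and above 10% in the other lines.

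The raised neighbours lay close together on the chromosome, with PNMT, which was not raised, between TCAP and PGAP3. Within 2 Mb of the ERBB2 start the table held 60 genes, and 45 genes besides the neighbours and ERBB2 were tested at LG. Of these 45, 11 (24.4%) were higher in ZR-75-30 than in both other lines by at least 1 log2 unit, against 77 of 979 (7.87%) on the rest of chromosome 17 and 4.93% of all genes. By the smaller difference the highest 5 of the window were MIEN1, PGAP3, GRB7, STARD3 and ERBB2, all within 51 kb of the ERBB2 start. The place of MIEN1 among them is uncertain for the reason given above. By the larger of the 2 differences the 5 lowest were CTD-2267D19.3, RAPGEFL1, MED1, KRT10 and MSL1, and apart from MED1 they start 434.1 to 1134.7 kb beyond ERBB2. The nearest tested genes that were not raised were PNMT 19.9 kb before ERBB2 and GSDMB 231.9 kb after it, with PNMT near the floor in every line.

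Some raised genes outside the block, singled out after their values were seen, lay further off. PPP1R1B, 61.2 kb before ERBB2, had LG means of 1313 in ZR-75-30, 518 in MDA-MB-175 and 0.58 in HCC1500. IKZF3, 176.4 kb after ERBB2, had a mean of 18.6 in ZR-75-30 and 1.41 in MDA-MB-175 and was at 0 in HCC1500. The 4 tested genes that start 100 to 300 kb before ERBB2, MED1 and CDK12 among them, were all not raised. Beyond them, RPL23 (834.2 kb before ERBB2; 25061 in ZR-75-30, 3196 in MDA-MB-175 and 942 in HCC1500) and LASP1 (818.1 kb before; 19499, 1836 and 1516) were again higher in ZR-75-30. TBC1D3 and TBC1D3F, 1486.0 and 1560.2 kb before ERBB2, were raised as well, but they belong to a family of near-identical copies and their reads are uncertain.

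**Figure D3:**
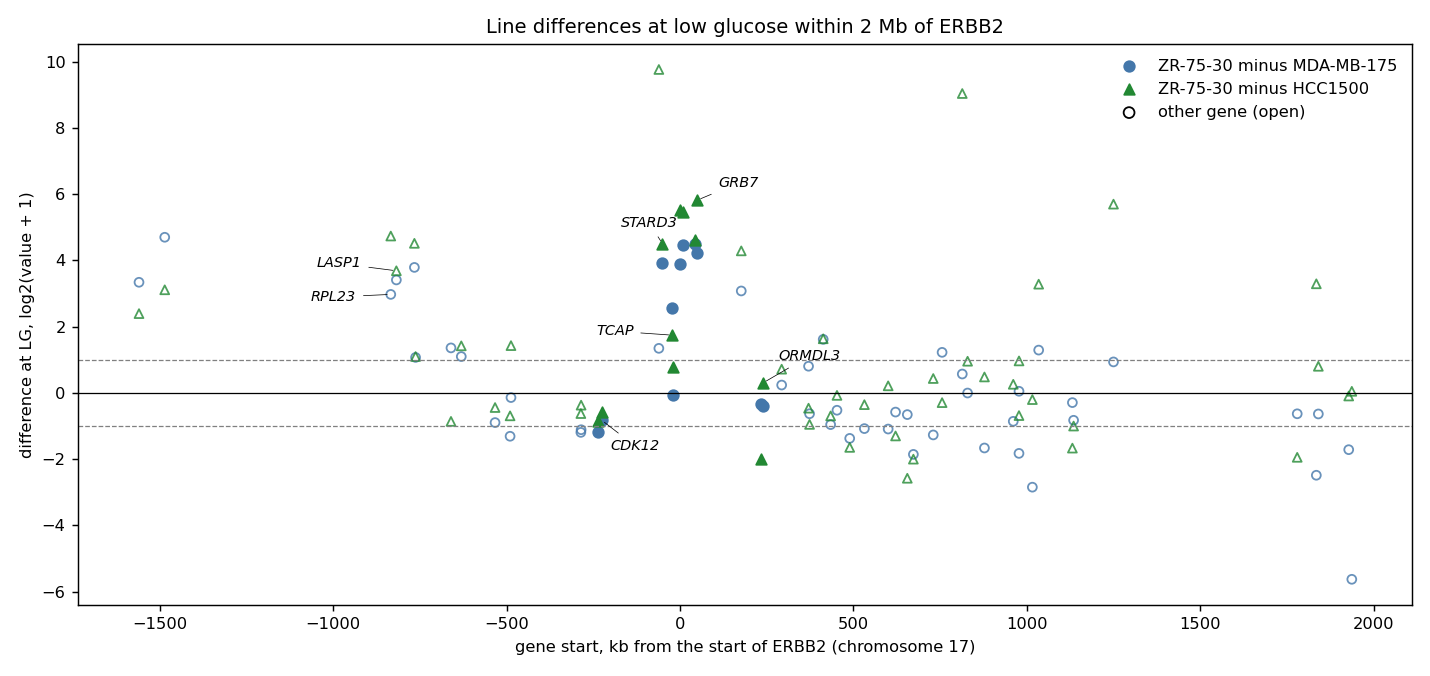
Difference between ZR-75-30 and each other line at LG, on the log2(value + 1) scale, for the tested genes within 2 Mb of ERBB2, against the distance of the gene start from the ERBB2 start in kb; filled symbols are the neighbours and ERBB2, open symbols other genes, and dashed lines mark 1 and -1. STARD3, PGAP3, MIEN1 and GRB7 peak at 3.91 to 5.82, TCAP lies at 2.56 and 1.74, MED1 and CDK12 lie below 0 about 230 kb to the left, and RPL23 and LASP1 rise again more than 800 kb to the left.

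Promoter sequence was looked at for the raised block, because PGAP3 and ERBB2 lie head to head there. RefSeq windows of 300 bases (250 before to 50 after the start, GRCh38.p14) were at hand for 6 of the 10 neighbours, and the windows of PGAP3 and ERBB2 share 136 bases. GRB7, GSDMB, TCAP and PNMT had none. The 3 windows of the raised genes are shown 5′ to 3′ on the gene's strand, with CCGGAA, the core read by ETS factors, in capitals on either strand (TTCCGG on the other).
STARD3 (chr17:39636894-39637193, plus strand): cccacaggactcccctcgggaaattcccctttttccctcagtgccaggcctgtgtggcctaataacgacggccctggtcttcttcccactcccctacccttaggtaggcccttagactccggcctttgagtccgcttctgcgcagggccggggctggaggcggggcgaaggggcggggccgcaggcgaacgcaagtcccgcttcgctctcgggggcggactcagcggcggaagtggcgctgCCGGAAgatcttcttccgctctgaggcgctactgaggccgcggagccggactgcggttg
PGAP3 (chr17:39688008-39688307, minus strand): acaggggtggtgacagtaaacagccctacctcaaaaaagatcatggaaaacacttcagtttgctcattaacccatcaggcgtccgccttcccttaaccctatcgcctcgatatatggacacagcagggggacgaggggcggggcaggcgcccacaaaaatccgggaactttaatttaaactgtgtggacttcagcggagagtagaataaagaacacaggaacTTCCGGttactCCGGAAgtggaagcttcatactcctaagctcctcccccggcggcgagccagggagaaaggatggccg
MIEN1 (chr17:39730483-39730782, minus strand): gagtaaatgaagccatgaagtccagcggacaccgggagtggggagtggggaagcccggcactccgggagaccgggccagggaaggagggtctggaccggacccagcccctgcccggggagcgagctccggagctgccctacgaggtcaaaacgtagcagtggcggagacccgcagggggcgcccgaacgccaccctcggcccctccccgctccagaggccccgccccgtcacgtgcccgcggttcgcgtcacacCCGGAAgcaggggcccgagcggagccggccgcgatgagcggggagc
The letters CCGGAA, chosen after the windows had been read, were in these 3 windows and in that of ERBB2, in none of MED1, CDK12 or ORMDL3 (3 windows), and in 17.2% of all 35116 windows. The matches of PGAP3 lie in the 136 bases shared with ERBB2, so the same sites are counted for both genes. As the letters were picked from these sequences, the share over all windows is no test of them. CACGTG, the E-box, was found in MIEN1 alone and in 7.3% of all windows, and GCCNNNGGC, an AP-2-type motif, in STARD3 alone and in 23.2% of all windows. Both strands were searched, and none of the 3 motifs contains another. A match is a description of the sequence, and nothing was measured at these promoters.

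Among the 10 neighbours, the raised ones were the same at high glucose. At HG the same 5 genes, GRB7, STARD3, PGAP3, MIEN1 and TCAP, were higher in ZR-75-30 than in both other lines by at least 1 log2 unit, against 6.11% of all genes. PPP1R1B, raised at LG, no longer met that limit at HG, at 0.83 above MDA-MB-175. With ZR-75-30 against MDA-MB-175 at HG, 8 of 10 neighbours were called in either direction (61% of all genes). Against HCC1500 it was 9 (70.4%), or 10 without HCC1500 HG replicate 3 (78.9%). MDA-MB-175 against HCC1500 gave 7 (69.4%), or 8 without that replicate (78.9%). GRB7 was 4.36 log2 units above MDA-MB-175 (adjusted p = 4.38e-09) and 6.61 above HCC1500 (adjusted p = 5.65e-11), or 6.91 without replicate 3 (adjusted p = 1.66e-20). The comparisons at HG share no samples with those at LG. ORMDL3 in ZR-75-30 minus HCC1500 was -0.03 (adjusted p = 0.895) with all samples, 0.17 (adjusted p = 7.01e-04) without replicate 3 and -0.34 (adjusted p = 0.00356) when rescaled to CPM.

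The second question was whether glucose moved the neighbours within a line. In ZR-75-30 it moved 8 of the 10, and neighbours a few kb apart went in opposite directions. TCAP, MIEN1, GRB7 and STARD3 rose at HG and PGAP3, ORMDL3, CDK12 and MED1 fell, that is 4 each way, where 23.4% of the 15834 genes tested were called higher and 22.7% lower. ERBB2 fell with the second group, from 69060 ± 3994 to 59491 ± 3236 (SD, n = 4; -0.21 log2 units, adjusted p = 0.004). In a limma fit on all 24 samples, MED1 (adjusted p = 0.377), CDK12 (0.128), STARD3 (0.252), PGAP3 (0.0801) and ERBB2 (0.0542) were not called.

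In ZR-75-30, GRB7 rose from the LG values above to 5765, 6155, 6096 and 5505 at HG. MIEN1 read 6161, 6056, 6005 and 5645 at HG. TCAP read 114, 105, 102 and 103 at HG. All HG samples lay above all LG samples for each of the 3. The folds were 1.51 for GRB7 (1.42 to 1.61; adjusted p = 2.59e-09), 1.53 for MIEN1 (1.44 to 1.62; adjusted p = 5.87e-10) and 3.12 for TCAP (2.66 to 3.66; adjusted p = 7.97e-10). Over the 571 bases that MIEN1 shares with ERBB2, the ERBB2 mean per base would hold 3821 at LG and 3291 at HG. These figures are scaled from the whole ERBB2 value, and reads over the shared bases were not counted apart. Their part in the MIEN1 difference was not tested. STARD3 read 4471, 4452, 4356 and 4023 at HG and rose 1.12-fold (1.06 to 1.19; adjusted p = 0.00123).

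PGAP3, the head-to-head partner of ERBB2, read 3589, 3552, 3571 and 3127 at HG in ZR-75-30 and fell 1.27-fold (1.19 to 1.36; adjusted p = 8.42e-06). ORMDL3 read 394, 398, 386 and 381 and fell 1.29-fold (1.20 to 1.39; adjusted p = 1.07e-05). CDK12 read 326, 317, 317 and 310.5 and fell 1.25-fold (1.16 to 1.34; adjusted p = 2.67e-05). MED1 read 195.5 to 223 and fell 1.22-fold (1.11 to 1.34; adjusted p = 0.00119). None of these HG samples overlapped the LG samples of the same gene. GSDMB read 2.27 to 12.5 at LG and 7.29 to 20.9 at HG (0.94 log2 units, adjusted p = 0.0622), and PNMT stayed at 2 to 8 reads. As a percentage of ERBB2 in the same sample, GRB7 went from 5.63% ± 0.0622 to 9.89% ± 0.102 and PGAP3 from 6.36% ± 0.0689 to 5.82% ± 0.234.

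In MDA-MB-175, 3 of the 10 were called, 2 higher (11.9% of 17029 genes) and 1 lower (13.7%). GRB7 read 292, 278, 279 and 289.7 at HG, all above the LG samples, and rose 1.38-fold (1.21 to 1.57; adjusted p = 8.91e-04). GSDMB read 17.1, 21.6, 15.6 and 15.8, from 30 to 41 reads, and rose 1.91-fold (1.37 to 2.66; adjusted p = 0.00589). PGAP3 read 165, 157, 157 and 148, all below the LG samples, and fell 1.27-fold (1.12 to 1.45; adjusted p = 0.00837). In a fit on all 24 samples none of the 3 was called (adjusted p = 0.104 for GRB7 and GSDMB and 0.147 for PGAP3), and PGAP3 was not called without the intensity trend (adjusted p = 0.0545). ERBB2 differed by -0.01 (95% interval -0.11 to 0.09) and STARD3 by -0.01 (-0.16 to 0.14), while MIEN1 differed by 0.14 (-0.06 to 0.34; adjusted p = 0.323) and TCAP by 0.46 (-0.09 to 1.02; adjusted p = 0.221).

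In HCC1500 with all samples, TCAP was the only neighbour called, higher at HG, where 7.46% of 16361 genes were called higher and 13% lower. TCAP read 24.8, 17.4, 40.1 and 24.9 at HG against 6.90 to 13.3 at LG, without overlap, and rose 2.60-fold (1.66 to 4.06; adjusted p = 0.01). Replicate 3, the third value in each list, lay away from the other HG samples in most neighbours. GRB7 read 48.4, 48.3, 112 and 47.1 at HG. MIEN1 read 155, 138, 389 and 136. CDK12 read 647, 644, 303 and 641.

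Without replicate 3, 8 of the 10 were called in HCC1500, TCAP, MED1, CDK12 and GSDMB higher (20.9% of 16235 genes) and GRB7, STARD3, ORMDL3 and PGAP3 lower (37.7%). GRB7 then fell 1.41-fold (1.22 to 1.62; adjusted p = 2.62e-04) and STARD3 1.19-fold (1.09 to 1.31; adjusted p = 0.00172). ORMDL3 fell 1.18-fold (1.10 to 1.26; adjusted p = 2.04e-04) and PGAP3 by 0.31 log2 units (adjusted p = 0.0191). MED1 rose 1.44-fold (1.35 to 1.53; adjusted p = 8.12e-09), GSDMB 1.57-fold (1.23 to 2.02; adjusted p = 0.00306), TCAP 2.25-fold (1.60 to 3.17; adjusted p = 3.09e-04) and CDK12 1.09-fold (1.04 to 1.15; adjusted p = 0.0061). MIEN1 was -0.14 (adjusted p = 0.0927), ERBB2 fell by 0.44 log2 units (adjusted p = 1.91e-09), and PNMT no longer passed the filter on low values. With all samples MED1 had been 0.13 (adjusted p = 0.835), CDK12 -0.15 (adjusted p = 0.712) and GRB7 -0.19 (adjusted p = 0.672).

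**Figure D4:**
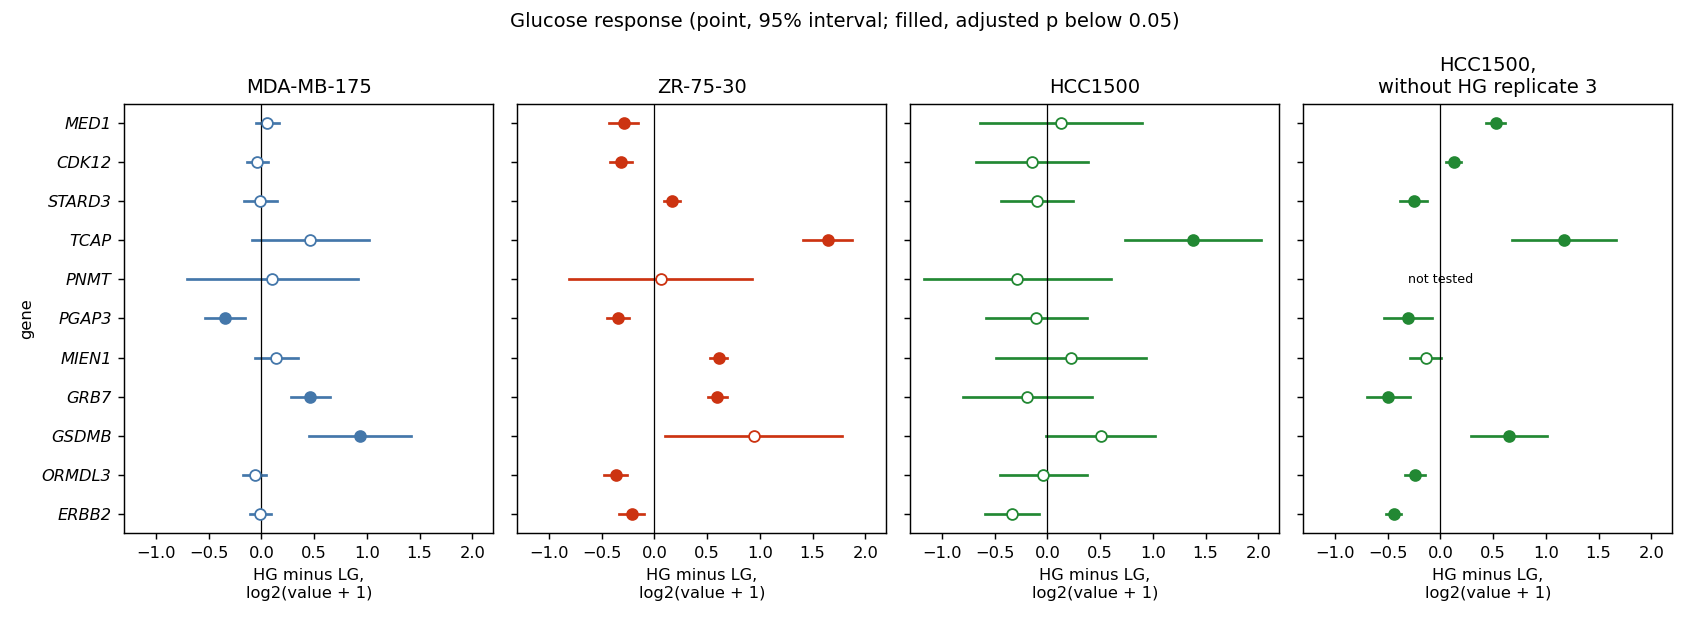
HG minus LG on the log2(value + 1) scale for the 10 neighbours and ERBB2 in each line, with HCC1500 also shown without HG replicate 3; points are estimates, bars 95% intervals, and filled points have an adjusted p below 0.05. In ZR-75-30, TCAP, MIEN1, GRB7 and STARD3 lie to the right of 0 and PGAP3, ORMDL3, CDK12, MED1 and ERBB2 to the left.

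A test of the difference between the 3 lines in their glucose response, made as an interaction over all 24 samples, called 2 of the 10 neighbours, against 29.3% of 18144 genes. They were TCAP (adjusted p = 0.0113) and GRB7 (adjusted p = 0.0379). The GRB7 call was lost in 14 of 24 omissions of 1 library. Without HCC1500 HG replicate 3 it called 7 of the 10 (48.6% of 18127 genes): GRB7 (adjusted p = 1.05e-08), MED1 (7.63e-08), CDK12 (3.10e-06), MIEN1 (2.55e-05), STARD3 (6.00e-04), TCAP (0.0029) and ORMDL3 (0.00313). GRB7 rose in ZR-75-30 and MDA-MB-175 and, without that replicate, fell in HCC1500. PGAP3 fell in ZR-75-30 (-0.35) and in MDA-MB-175 (-0.34) and was at -0.10 in HCC1500 (-0.31, and called, without replicate 3), and its interaction was not called (adjusted p = 0.57, and 0.965 without replicate 3).

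Genes that work with the neighbours but lie elsewhere were counted from 9 lists of 57 genes, of which 54 were in the table and 52 were tested at LG. None of the 52 was higher in ZR-75-30 than in both other lines by at least 1 log2 unit, beside 4.93% of all genes. With 52 genes so low a count is near that share and says little of the partners. SHC1, listed for GRB7, came close, at 0.95 above MDA-MB-175 and 1.62 above HCC1500. Of the 25 Mediator subunits outside 17q, partners of MED1, 7 were called higher and 11 lower in ZR-75-30 than in MDA-MB-175 at LG, where 28.8% and 44.3% of all genes were. At HG in ZR-75-30, 5 of the 25 rose and 5 fell, beside 23.4% and 22.7% of all genes. The 4 elongation kinase genes listed for CDK12 were all called lower in ZR-75-30 than in MDA-MB-175, where 44.3% of all genes were, and 3 of the 4 lower than in HCC1500, where 48% were. CCNK, the cyclin of CDK12, was lower than in MDA-MB-175 by 0.24 (adjusted p = 6.50e-05) and differed from HCC1500 by -0.04 (adjusted p = 0.337). For glucose in ZR-75-30 it was at -0.05 (adjusted p = 0.375).

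Among the 4 adaptors listed for GRB7, its close relative GRB10 had LG means of 538 in ZR-75-30, 47.0 in MDA-MB-175 and 889.9 in HCC1500, and GRB14 of 1.61, 11.9 and 280.5. Of the 4 genes of endosomal cholesterol contact listed for STARD3, NPC1, the cholesterol exporter, rose at HG in ZR-75-30 (0.55, adjusted p = 3.65e-06) and in MDA-MB-175 (0.46, adjusted p = 2.08e-04), while STARD3NL was not called in either (-0.07 and -0.05). Of the 4 genes of GPI anchor assembly and remodelling listed for PGAP3, 2 fell at HG in MDA-MB-175, beside 13.7% of all genes. In ZR-75-30, 2 fell and 1 rose, beside 22.7% and 23.4%. In HCC1500, 1 fell, beside 13%, and without HG replicate 3, 3 fell, beside 37.7%. MPPE1 fell in both lines, by 0.27 (adjusted p = 0.025) and 0.24 (adjusted p = 0.0417).

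Of the 6 genes of serine palmitoyltransferase and its regulators listed for ORMDL3, SPTSSB, a small subunit of the enzyme, rose at HG in all 3 lines, by 0.78 in ZR-75-30 (adjusted p = 3.42e-10), 0.21 in MDA-MB-175 (0.00131) and 1.13 in HCC1500 (3.83e-04), or 1.02 without HG replicate 3 (3.65e-12). SPTLC1 fell by 0.47 in ZR-75-30 (adjusted p = 3.47e-07), where ORMDL3 fell as well. In HCC1500 without HG replicate 3 the directions were opposite, as SPTLC1 rose by 0.21 (adjusted p = 7.35e-04) and ORMDL3 fell. Neither gene was called in HCC1500 with all samples or in MDA-MB-175. Of the 3 gasdermins outside 17q, GSDMD rose by 1.11 in ZR-75-30 (adjusted p = 1.53e-06) and was at 0.02 in MDA-MB-175 (adjusted p = 0.934). In HCC1500 GSDMD was at -0.67 (adjusted p = 0.139), and it fell by 1.0 without HG replicate 3 (adjusted p = 6.37e-12). DFNA5 rose in MDA-MB-175, by 1.14 (adjusted p = 1.58e-05). Of the 4 Z-disc partners of TCAP, MYOZ2 and CSRP3 had means of at most 0.40 in every group and MYOZ1 of at most 5.40. TTN (titin) had LG means of 3.13 in ZR-75-30, 5.85 in MDA-MB-175 and 23.3 in HCC1500, and rose at HG in ZR-75-30, to 6.89 (1.12 log2 units, adjusted p = 0.0231). None of the 3 genes of catecholamine synthesis listed for PNMT was in the table. Over all lists, 13 of 52 tested genes rose and 12 fell at HG in ZR-75-30, where 23.4% and 22.7% of all genes did. In MDA-MB-175, 9 rose and 4 fell, beside 11.9% and 13.7%. In HCC1500, 5 of 50 rose and 3 fell, beside 7.46% and 13%, and without HG replicate 3, 17 rose and 15 fell, beside 20.9% and 37.7%.

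Over all 24 samples, the profile most like that of GRB7, by the distance between log2(value + 1) values centred on each gene's mean among 18144 genes, was that of RPL9P8 and RPL9P9 (1.98 each). These are near-identical pseudogene copies whose reads are uncertain. ERBB2 came next (2.03; Pearson r = 0.993), then TMEM92 (2.14), another gene of chromosome 17, and SGMS2 (2.55). PGAP3 was 8th, STARD3 20th and MIEN1 31st in likeness to GRB7, whereas ORMDL3 was 6706th and CDK12 11559th. Among the genes closest to CDK12 were RALGAPB (0.49), TRRAP (0.72), TRAM2 (0.73) and CDC27 (0.81), with MED1 73rd at a distance of 1.14. ORMDL3 was closest to PDAP1 (0.44), L3MBTL2 (0.52), FTSJ2 (0.59), VWA9 (0.59) and ERH (0.60). Without HCC1500 HG replicate 3, ERBB2 was 4th (1.99), PGAP3 10th, STARD3 22nd and MIEN1 26th in likeness to GRB7, which kept 4 of its 5 nearest genes. CDK12 kept 1 of 5, with MED1 353rd, and ORMDL3 kept 2 of 5. The 24 points share lines and libraries, so these likenesses are given as a description.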

How the data were processed

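RNA of 24 cell line samples was sequenced on an Illumina HiSeq. The deposited signal values are, per the file headers and their steps, read counts that the authors divided by 1 factor per sample. The study's methods describe CPM with edgeR's TMM factors, but the deposited columns sum to 5559394 to 7594840, unlike CPM, and how the factor was set for them is not settled. The submitters' processing notes name edgeR and hg38, whereas the methods name hg19 for other samples, so the build is not settled, and coordinates here come from GRCh37 and GENCODE by Ensembl identifier (96.3% of genes).

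Samples were grouped by title. Genes reaching 0.5 in 4 or more samples of a fit were tested on log2(value + 1) with limma 3.58.1 (trend, moderated test, Benjamini-Hochberg over all genes) in R 4.3.3, and called at an adjusted p under 0.05. Line contrasts used the 12 samples of a medium, glucose contrasts the 8 of a line, and the interaction all 24. Folds are 2 to the power of that difference. edgeR 4.0.16 and DESeq2 1.42.0 were run on the recovered reads. The scripts were tested on simulated data. Named were the 10 neighbours, ERBB2, the 5 highest and 5 lowest genes of the 2 Mb window by line difference, the nearest unraised gene on each side, the 5 nearest profiles of 3 neighbours and up to 4 partners per list; 1 gene that the rule named is not reported here. Members and lists were chosen with earlier results of these data known, and the partner counts and profiles without HCC1500 HG replicate 3 were added after seeing the data.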

Additional observations from a re-analysis of the deposited data

Results flagged for a closer look

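In 60 sets of 4 replicates (10 neighbours in 6 groups), 7 held a sample farther from the rest than Dixon's 95% limit allows. Chance would give about 3 if the sets were independent, but the neighbours share libraries, so the counts make no test. Of the 7, 6 were HCC1500 HG replicate 3. There MED1 (216.8) and CDK12 (303.0) were the lowest of the group, and STARD3 (216.8), MIEN1 (389.1), GRB7 (112.1) and ORMDL3 (602.2) the highest. The seventh was PGAP3 in ZR-75-30 HG, where replicate 4 was the lowest at 3127.

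The glucose response differed between the 3 lines by the interaction test for TCAP (limma, adjusted p = 0.0113, and 0.0029 without HCC1500 HG replicate 3) and GRB7 (adjusted p = 0.0379, and 1.05e-08 without it). TCAP rose by 1.64 log2 units in ZR-75-30 and 1.38 in HCC1500 and was at 0.46, not called, in MDA-MB-175. GRB7 rose by 0.60 in ZR-75-30 and 0.46 in MDA-MB-175 and was at -0.19, not called, in HCC1500. Its interaction call was lost in 14 of 24 omissions of 1 library.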

How the results depend on the processing

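Of 2230 recomputed values of single genes, 2154 kept their side of the threshold (44 of them, not called, changed sign), 29 lost the call, 44 gained it and 3 turned: ORMDL3 in ZR-75-30 minus HCC1500 at LG (-0.05 as CPM) and at HG (-0.10 to 0.17 with 1 library left out, 0.17 being without HCC1500 HG replicate 3), and CDK12 for glucose in HCC1500 (-0.24 to 0.12, again without that replicate). Scaling to CPM moved the median of all genes at LG by -0.12 and -0.22 log2 units for ZR-75-30 against MDA-MB-175 and HCC1500, and the share of higher calls in the first from 39.4% to 28.7%; edgeR moved the second median by 0.14. In HCC1500 that share was 36.4% for glucose, 49.3% with median-of-ratios scaling, 47.8% with edgeR and 52.4% with DESeq2.

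A limit of 1 log2 unit left 3 and 4 called neighbours in MDA-MB-175 against HCC1500 at LG and HG, and 0 and 1 for glucose in MDA-MB-175 and ZR-75-30. A fit on all 24 samples, which takes in the spread of HCC1500 HG replicate 3, left 0 and 4 for glucose in these lines (GRB7 in MDA-MB-175, adjusted p = 0.104). The interaction called 4 neighbours as CPM or by DESeq2 and 1 without the intensity trend. The share of all genes called is not given for most of these settings. A changed count is therefore not by itself a result about the neighbours.

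Leaving out 1 library gave 8 to 8 called neighbours for ZR-75-30 against MDA-MB-175 at LG and at HG, 9 to 10 and 8 to 10 against HCC1500, 8 to 10 and 7 to 8 for MDA-MB-175 against HCC1500, 8 to 9, 3 to 3 and 1 to 8 for glucose in ZR-75-30, MDA-MB-175 and HCC1500, and 1 to 7 for the interaction. Omitting HCC1500 HG replicate 3 gave the 8 for glucose in HCC1500 and the 7 of the interaction. The same omission took the share of all genes called by the interaction from 29.3% to 48.6%. For glucose in HCC1500 it took the shares from 7.46% higher and 13% lower to 20.9% and 37.7%. GRB7 lost its interaction call in 14 of 24 omissions: each HCC1500 library but HG replicate 3, MDA-MB-175 HG replicate 1, ZR-75-30 LG replicates 1, 2 and 4, and ZR-75-30 HG replicates 1, 2 and 3 (adjusted p up to 0.0942).

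Replicate numbers did not pair the samples (mean correlation of same-numbered deviations 0.04, 0.01 and 0.02 in the 3 lines). A replicate block left 0 called neighbours in HCC1500 (TCAP, adjusted p = 0.0528) and changed no other count by over 1.5 times. TCAP, GSDMB and PNMT are limited by depth.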
